A study of Mus musculus with 14 samples.

Results

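The subject is the run of protocadherin beta genes at the far end of their cluster, Pcdhb13 to Pcdhb22. Its members were the probe sets annotated with exactly 1 of these 10 symbols. Each symbol had 1 probe set, so 10 of the 23332 probe sets were members. The gene IDs of all 10 probe sets carried the same current symbols in a RefSeq table, although 9 of the genes have an older symbol that another beta isoform carries now.

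The 14 samples are mouse brain tissue taken on postnatal day 7, hybridised to Affymetrix exon arrays, from C57BL/6 animals labelled as male. Every animal carried floxed Ctcf alleles on both chromosomes (fl/fl). The conditional knockout (cKO) also carried 1 Nex-Cre allele (+/Cre), a Cre recombinase placed in the Neurod6 locus and active in excitatory neurons of cortex and hippocampus, and the control carried none (+/+). By label there are 8 arrays of cortex, 4 per genotype, and 6 of hippocampus, 3 per genotype.

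No group carried Cre without floxed Ctcf, so effects of Ctcf loss, of Cre and of the Cre allele on Neurod6 cannot be told apart. Interneurons and glia do not express Neurod6 and remain in the tissue of the cKO. Each array is labelled as a biological replicate, with no animal named, and the p-values rest on the spread among these arrays. In bulk tissue, fewer cells of a type and less RNA per cell cannot be told apart.

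The arrays labelled hippocampus control 2, hippocampus cKO 1 and hippocampus cKO 3 are near-copies of cortex control 3, cortex cKO 3 and cortex cKO 2, with Spearman correlations of 0.99677 to 0.99682 over all probe sets, against at most 0.98998 for any other pair of arrays. They were set aside, which left 11 arrays, with 2 control arrays and 1 cKO array for hippocampus. The mean level of the Y-linked genes Eif2s3y and Kdm5d was 3.61 to 4.10 on 4 arrays (replicates 1 and 4 of cKO cortex, hippocampus control 1, hippocampus cKO 2), and at least 7.91 elsewhere. The low values on these 4 arrays go against their male label, and the arrays include the 1 cKO array used for hippocampus. The median log2 value of an array ran from 6.57 to 6.77. On the 11 arrays the summed level of 6 hippocampal markers was 11.71 to 11.86 in hippocampus and 10.17 to 10.75 in cortex, and that of 5 cortical markers was 10.91 to 10.97 and 11.70 to 12.13.

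Clustered protocadherins are cadherin-like adhesion molecules of the neuronal surface that bind the same isoform on a facing membrane. Each neuron expresses a small subset of isoforms from 3 neighbouring clusters, alpha, beta and gamma, and the combination serves as an identity tag by which neurites of a cell recognise and avoid each other. A beta isoform is encoded by 1 exon with its own promoter and lacks the shared cytoplasmic tail of the alpha and gamma isoforms. CTCF binds many of these promoters and distant enhancers and, with the cohesin complex, holds them together in chromatin loops. All 10 members are homophilic adhesion molecules of this kind, and they are described below in gene order where no size is at issue.

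In cortex all 10 isoforms were lower in the cKO. Every cKO array lay below every control array for each of them, where 5.7% of all probe sets separated in that direction. For groups that do not overlap, an exact two-sided permutation test over the 70 splits of the 8 arrays can only give its smallest p, 0.0286, and adds nothing to that count. All 10 were called lower by limma (adjusted p under 0.05, fold over 1.2), against 1.36% of all probe sets called lower, 0.591% called higher and 1.95% called in all. The median change was -1.45 on the log2 scale, and the median over all probe sets was -0.02. The smallest of the 10 falls left 49.4% of the control level and the largest left 28.0%.

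Pcdhb19 had the largest fall. Control cortex arrays 1 to 4 read 8.23, 7.81, 8.08 and 7.98, and cKO cortex arrays 1 to 4 read 6.09, 6.27, 6.07 and 6.33. The highest cKO array lay far below the lowest control array. The change was -1.83 (SE 0.11, 95% interval -2.08 to -1.59, n = 4 per group, limma adjusted p = 0.000112), the 8th most negative of all 23332 probe sets.

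Pcdhb22, the last gene of the cluster, read 8.34, 7.51, 7.92 and 7.63 in control cortex and 6.13, 6.30, 6.17 and 6.13 in cKO cortex. Its control arrays spread more widely than those of any other member, with an SD of 0.37 against 0.08 in the cKO. It fell by 1.67 (SE 0.17, limma adjusted p = 0.00125), to 31.5% of the control level. Pcdhb13, the first of the 10, read 5.94, 5.90, 5.61 and 5.57 in control and 4.38, 3.95, 4.11 and 4.05 in cKO cortex. The groups did not overlap, and its cKO arrays came closest to 3.54, the median level of 719 olfactory receptor probe sets, which serve as a guide to background. It fell by 1.63 (SE 0.13, limma adjusted p = 0.000469), to 32.3%.

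Pcdhb20 was the most evenly measured isoform. It read 8.55, 8.17, 8.28 and 8.25 in control and 6.77, 6.92, 6.83 and 6.81 in cKO cortex, with SDs of 0.16 and 0.06. The fall of 1.48 (SE 0.09, 95% interval -1.68 to -1.27) had the smallest error of the 10 and, at a limma adjusted p of 0.000112, shared the lowest p with Pcdhb19. Pcdhb21 fell by 1.495 (SE 0.14) and Pcdhb16 by 1.42 (SE 0.10), to 35.5% and 37.4% of control.

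The isoforms with the smallest falls were Pcdhb14 and Pcdhb15. Pcdhb14 read 6.44, 6.08, 5.88 and 6.15 in control and 5.04, 5.27, 5.03 and 5.14 in cKO cortex. The groups did not overlap. It fell by 1.02 (SE 0.12, 95% interval -1.28 to -0.75, limma adjusted p = 0.00241), an interval that does not reach that of Pcdhb19. Pcdhb15 fell by 1.12 (SE 0.16, limma adjusted p = 0.00822), Pcdhb18 by 1.33 (SE 0.12) and Pcdhb17 by 1.34 (SE 0.20). Pcdhb17 had the weakest support, with an adjusted p of 0.0102. Its control arrays ranged from 5.44 to 6.16 and its cKO arrays from 4.06 to 4.795.

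All 10 stayed called when any of the 11 arrays was left out, with limma adjusted p of at most 0.0415. They also stayed called with Y-linked signal as a covariate, with a median change of -1.39. In a fit of the cortex arrays alone all 10 stayed called. With the 2 cortex cKO arrays that lack Y-linked signal also left out of that fit, 5 of the 10 stayed called. The changes ran from -1.85 to -0.99 with a median of -1.39 and a limma adjusted p of up to 0.108 (Pcdhb14). Calls over all probe sets also fell, to 56 from 396 in the fit of all cortex arrays alone. The fit over 11 arrays had 455.

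**Figure D1:**
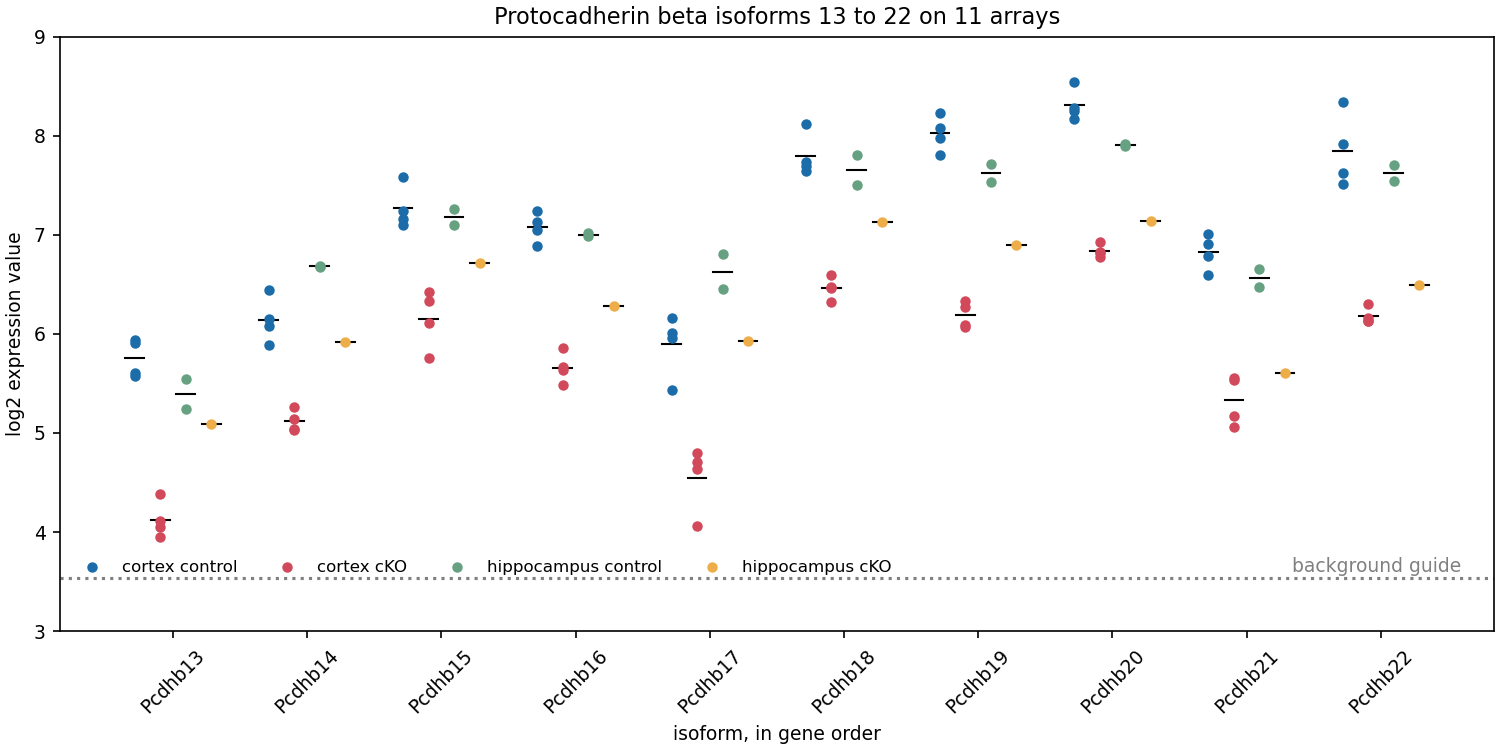
Log2 expression value (vertical axis) of each of the 10 isoforms (horizontal axis, gene order) on 11 arrays, 1 point per array, coloured by group, with a black line at each group mean and a dotted line at the background guide of 3.54. In every isoform the 4 cortex cKO arrays lie below the 4 cortex control arrays. The 1 hippocampus cKO array lies between the cortex cKO arrays and the hippocampus control arrays, for Pcdhb21 only just above cortex cKO 3 (5.61 against 5.55). Levels of different isoforms come from different probe sets and are not comparable.

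Within groups the isoforms varied together to a moderate degree. Over the 45 pairs of isoforms, the median correlation of their deviations from group means was 0.471 over 11 arrays, and it ranged from -0.671 to 0.949. The 1 hippocampus cKO array is its own group mean and adds nothing, and 7 residual degrees of freedom remain. Cortex control 1 held the highest control value for 9 of the 10 isoforms, all but Pcdhb16, and it also had the highest array median in cortex, 6.77. Cortex control 2 held the lowest control value for 6 of the 10. Among the cKO arrays no array was highest or lowest for more than 4.

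The neighbouring isoforms 1 to 12 were lower as well, by less in the median. Of their 13 probe sets for 12 genes, 10 were called lower in cortex, against 1.36% of all probe sets, and none higher. The median change of -1.02 counts Pcdhb1 and the second Pcdhb11 probe set described among the other observations. Pcdhb12, next to Pcdhb13, fell by 1.65 (SE 0.15) and Pcdhb7 by 1.38 (SE 0.16), within the range of isoforms 13 to 22. Pcdhb3, Pcdhb5, Pcdhb9 and Pcdhb10 also fell within that range, and Pcdhb4 stood at its edge with a fall of 1.02 (SE 0.09). Pcdhb2 fell by 0.88 (SE 0.11). Of the probe sets that were not called, Pcdhb6 stood at -0.40 (SE 0.09, limma adjusted p = 0.0783) and Pcdhb1 at 0.16 (SE 0.33), with a level at or below the background guide. Among isoforms 13 to 22 the correlation of isoform number with the cortex change was -0.496 over 10 genes, given as a description. Neighbouring genes share a locus, and their probe sets may share sequence.

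The genes that follow the cluster were not called. Slc25a2, a mitochondrial ornithine transporter, and Taf7, a subunit of the general transcription factor TFIID, lie between Pcdhb22 and the gamma cluster. Slc25a2 stood at 0.38 (SE 0.21, 95% interval -0.10 to 0.86) and Taf7 at 0.18 (SE 0.18, 95% interval -0.22 to 0.58) in cortex, and both intervals lie above those of all 10 isoforms. Of 21 measured genes on either side of the protocadherin clusters none was called in cortex, where 1.95% of all probe sets were. The 21 had a median of 0.01 and changes from -0.24 to 0.38. The 2 with the smallest p were Fchsd1 at 0.27 (SE 0.09, limma adjusted p = 0.251) and the formin gene Diaph1 at 0.24 (SE 0.10, adjusted p = 0.378). The order of these genes was taken from the GRCm38 assembly, whereas the arrays were annotated on mm9, and no coordinates are given. The alpha and gamma isoforms had no probe set with 1 symbol and were not analysed here.

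**Figure D2:**
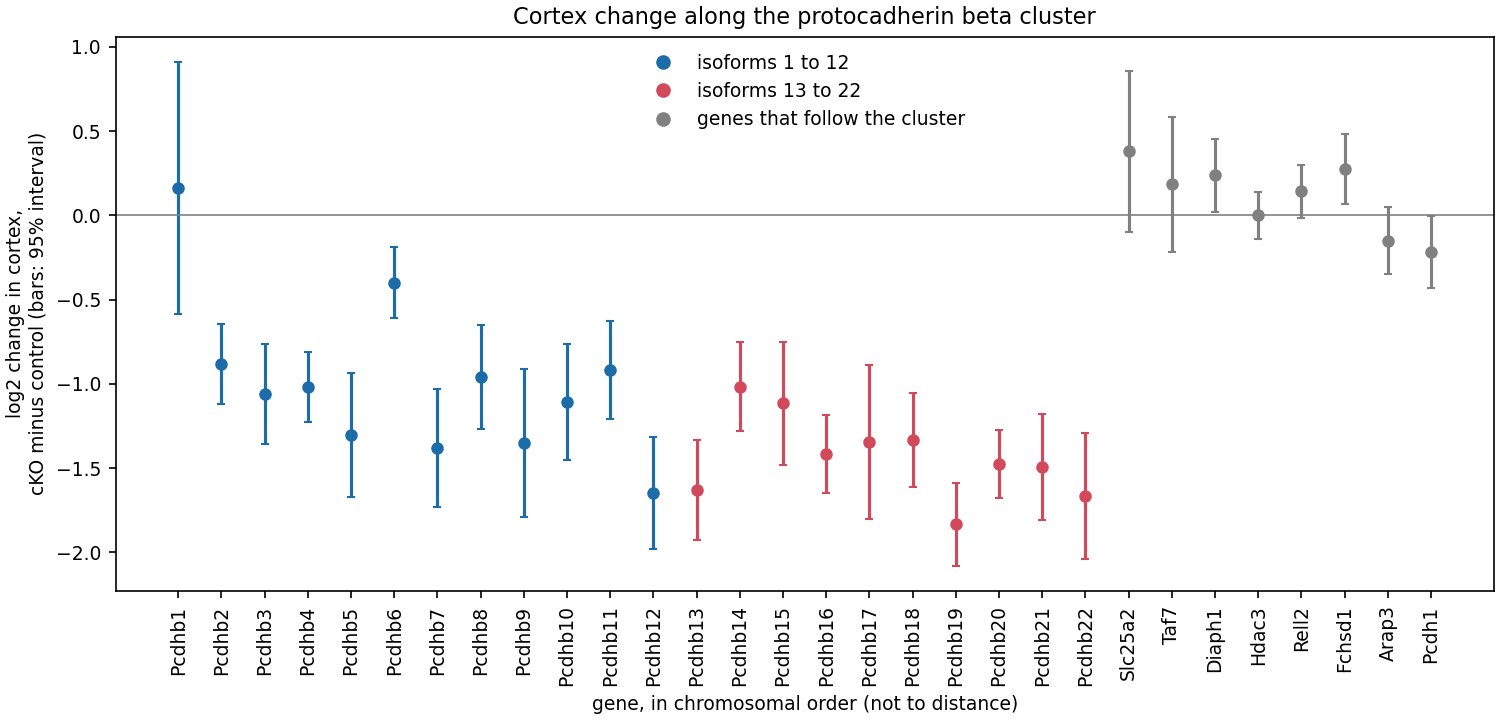
Log2 change in cortex, cKO minus control (vertical axis, points with 95% intervals), for genes in chromosomal order (horizontal axis, equal steps). Isoforms 13 to 22 lie between -1.83 and -1.02, isoforms 1 to 12 between -1.65 and 0.16, and the genes that follow the cluster between -0.22 and 0.38. One of the Pcdhb11 probe sets, described among the other observations, is not drawn.

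Other genes of the pathway were called as follows, where 1.95% of all probe sets were called in cortex (1.36% lower, 0.591% higher). At that share a short list can hold no call. Nonclustered protocadherins, relatives outside the alpha, beta and gamma clusters, had no called member among 10, a median of 0.15 and a highest change of 0.25 (Pcdh7, SE 0.07, limma adjusted p = 0.157), followed by Pcdh10 at 0.23 (SE 0.07, adjusted p = 0.210). Pcdh1 and Pcdh12 of this list are also among the 21 measured genes on either side of the clusters. Of 23 regulators of protocadherin promoters (Ctcf, cohesin, DNA methylation and silencing genes) 1 was called lower, Ctcf itself, and 1 higher, the cohesin subunit gene Stag1 (0.50, SE 0.10, limma adjusted p = 0.0357). Of 16 genes that act with or downstream of clustered protocadherins 1 was called. Ptk2b, the kinase PYK2 that alpha and gamma isoforms bind, fell by 0.56 (SE 0.11, limma adjusted p = 0.0345). The medians of these 2 lists were both -0.04.

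Markers of cell types gave the following values beside the fall of the isoforms, and their part in it was not tested. In cortex 1.36% of all probe sets were called lower and 0.591% higher. The summed level of the 10 isoforms was 10.49 to 10.94 in control and 9.15 to 9.27 in cKO cortex. That of 15 excitatory neuron markers was 14.06 to 14.34 in control and 13.98 to 14.29 in cKO cortex, with a median change of -0.07, and 3 were called lower, Fezf2 (-1.63, SE 0.08), Bcl11b (-0.76, SE 0.07) and Neurod6 (-1.87, SE 0.21). All 14 microglial markers had positive changes, with a median of 0.34 and Fcgr3 called (1.42, SE 0.19), and their summed level was 10.54 to 11.30 in control and 11.02 to 11.60 in cKO cortex. All 13 endothelial and pericyte probe sets had negative changes, with a median of -0.17, summed levels of 11.59 to 12.02 and 11.53 to 11.63, and none was called (smallest p for Kdr, -0.38, and Abcc9, -0.35).

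Medians of the remaining marker lists lay close to 0 and none of their members was called, where 1.95% of all probe sets were. Interneuron markers had a median of -0.05 over 13 (Sst -0.43, Reln -0.24), astrocyte markers 0.07 over 12 (Gfap 0.57, Gjb6 0.28), oligodendrocyte lineage markers 0.02 over 12 (Cspg4 -0.26, Olig1 -0.14), and meningeal and choroid plexus markers 0.05 over 12 (Dcn 0.25, Col3a1 0.14). In control and cKO cortex their summed levels were 12.785 to 12.995 and 12.64 to 12.86 for interneurons, 12.73 to 13.15 and 12.88 to 13.18 for astrocytes, 11.32 to 11.85 and 11.46 to 11.79 for oligodendrocytes, and 10.68 to 11.10 and 10.86 to 11.06 for meninges and choroid plexus. The regional lists held calls of their own in cortex, Grik4 (-0.75) among 6 hippocampal markers and Lmo4 (-0.44) and Kcnh5 (-1.005) among 5 cortical markers. No marker in any of these lists was at or below the background guide.

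In hippocampus the 1 cKO array lay below both control arrays for all 10 isoforms, where 25.8% of all probe sets did. It also lay above every cortex cKO array for all 10, a combination that 7.22% of all probe sets showed. For Pcdhb21 the margin was narrow, 5.61 against 5.55 on cortex cKO 3. The array median was 6.77 on hippocampus cKO 2 and 6.57 to 6.63 on the cortex cKO arrays. In the near-identical pairs described below, the arrays labelled hippocampus read 0.22 higher for Pcdhb21 in the mean. The changes of the 10 isoforms in hippocampus ran from -0.31 to -1.13 with a median of -0.72, against a median of 0.06 over all probe sets. None was called by limma after adjustment, where 1 probe set in all was called (0.00429%). At an unadjusted p under 0.05, 7 of the 10 were lower, against 2.51% of all probe sets. The cKO array has no replicate, and its spread was taken from the other groups. Summed marker levels in control and cKO hippocampus were 14.22 to 14.33 and 14.10 for excitatory neurons, 10.97 to 11.07 and 11.35 for microglia, and 11.31 to 12.85 and 12.35 for meninges and choroid plexus, and their part in the isoform values was not tested.

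Pcdhb22 showed the largest change of the 10. It read 7.54 and 7.70 on hippocampus control 1 and 3 and 6.49 on hippocampus cKO 2. The 2 control arrays lay close together and the cKO array well below both. The change was -1.13 (SE 0.29, 95% interval -1.78 to -0.48, limma adjusted p = 0.375), or 45.7% of control.

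Pcdhb21 read 6.48 and 6.66 in control and 5.61 in cKO hippocampus, a change of -0.96 (SE 0.24, limma adjusted p = 0.375). Pcdhb20 read 7.90 and 7.92 in control and 7.14 in cKO hippocampus, a change of -0.77 (SE 0.16, adjusted p = 0.247). Its 2 control arrays were almost equal, and its p was the lowest of the 10.

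At the other end stood Pcdhb13. It read 5.25 and 5.54 in control and 5.09 in cKO hippocampus, and the control arrays differed from each other by more than the cKO array did from the nearer one. Its change of -0.31 (SE 0.23, 95% interval -0.82 to 0.21, limma adjusted p = 0.962) left 80.9% of the control level, although the same isoform was among the 3 largest falls in cortex. Pcdhb15 stood at -0.47 (SE 0.28), Pcdhb18 at -0.53 (SE 0.22) and Pcdhb17 at -0.70 (SE 0.35). Pcdhb16 (-0.72, SE 0.18), Pcdhb19 (-0.73, SE 0.19) and Pcdhb14 (-0.76, SE 0.20) lay close together.

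With all 14 arrays as labelled, the 3 near-copies of cortex arrays included, 78 of all probe sets were called in the arrays labelled hippocampus. Of the isoforms 6 were among these (Pcdhb16 and Pcdhb18 to Pcdhb22), and the median change of the isoforms was -1.04. Without those 3 arrays none was called.

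The change in hippocampus was smaller in size than in cortex for all 10 isoforms. The difference between the 2 changes, hippocampus minus cortex, was positive for each, with a median of 0.67, and 62.6% of all probe sets also had a positive difference, with a median of 0.08. With array medians centred the median over the 10 was 0.58, and with quantile normalization again it was 0.545. The difference stayed positive for all 10 in both fits. The interaction test of limma called none of the 10 and 2 of all probe sets (0.00857%). At an unadjusted p under 0.05 it gave 5 of the 10, against 5.26% of all probe sets in either direction.

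Pcdhb13 had the largest difference, 1.33 (SE 0.26, 95% interval 0.73 to 1.92, unadjusted p = 0.000677, limma adjusted p = 0.405). Pcdhb19 followed at 1.11 (SE 0.22, unadjusted p = 0.000628, adjusted p = 0.405), then Pcdhb18 at 0.80 (SE 0.25), Pcdhb20 at 0.70 (SE 0.18) and Pcdhb16 at 0.70 (SE 0.20). The intervals of the other 5, Pcdhb14, Pcdhb15, Pcdhb17, Pcdhb21 and Pcdhb22, included 0, and their differences ran from 0.26 (Pcdhb14) to 0.65. Whether the isoforms fell less in hippocampus than in cortex therefore rests on 1 cKO array, and no isoform differed after adjustment.

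**Figure D3:**
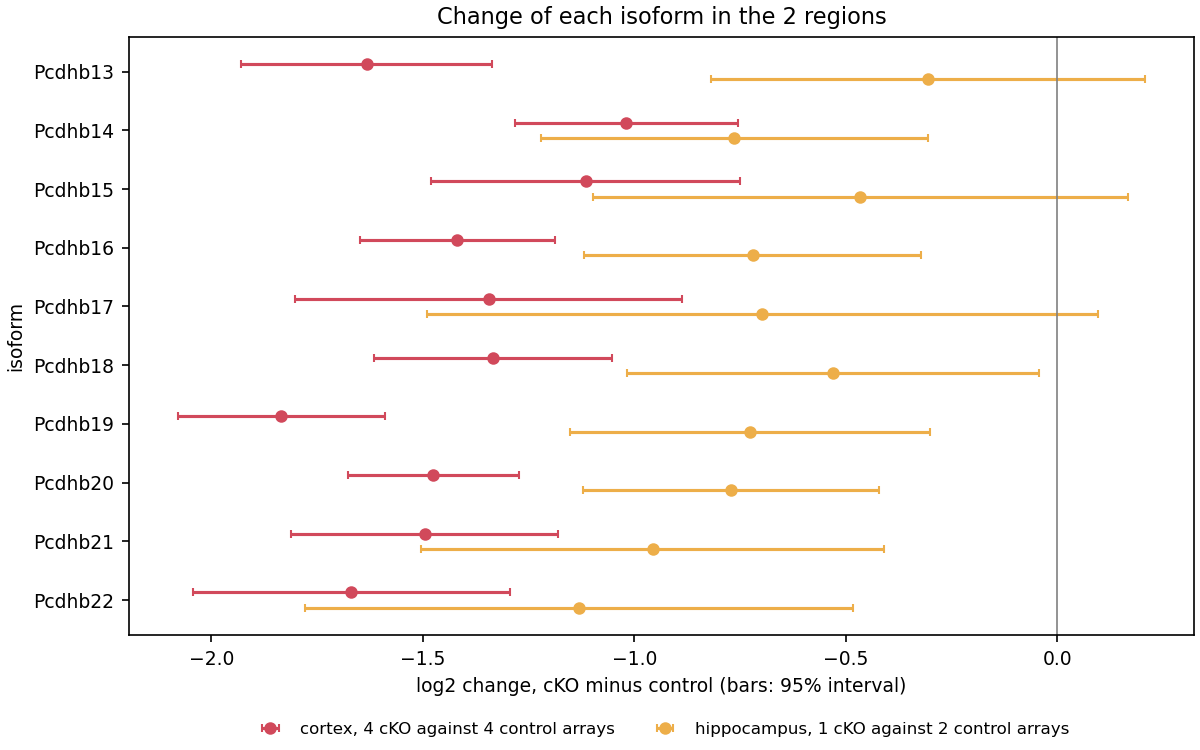
Log2 change, cKO minus control (horizontal axis), for each isoform (vertical axis), with 95% intervals from the fit over 11 arrays, in cortex (4 against 4 arrays) and hippocampus (1 against 2 arrays). All cortex intervals lie below 0, those of Pcdhb13, Pcdhb15 and Pcdhb17 in hippocampus include 0, and every hippocampus point lies to the right of the cortex point.

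Ctcf itself also had a smaller change on the 1 hippocampus cKO array than in cortex. It stood at 37.4% of the control level in cKO cortex (log2 change -1.42, SE 0.08, limma adjusted p = 8.42e-05) and at 59.7% on the hippocampus cKO array (-0.75, SE 0.13, adjusted p = 0.172), where it read 8.31 against 8.95 and 9.16 in control. The difference between its changes was 0.67 (SE 0.15, unadjusted p = 0.00154, adjusted p = 0.516). The isoforms stood at 28.0% to 49.4% in cortex and 45.7% to 80.9% in hippocampus. Neurod6 stood at 27.3% and 43.7%. The difference, hippocampus minus cortex, was also positive for 21 of the 23 regulators of protocadherin promoters, Ctcf included, and for 62.6% of all probe sets. Whether the Ctcf level has a part in the isoform values was not tested.

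Over the 11 arrays Ctcf was among the 5 genes outside the beta cluster whose pattern was most like that of the isoforms. The measure was Pearson's r with the mean of the 10 isoforms, each centred on its own mean. Since the arrays fall into cKO and control groups, r mostly records a like difference between them and carries no p. The highest were Hs6st2, a heparan sulfate sulfotransferase (r = 0.989), Ctcf (0.989), the diphthamide synthesis gene Dph7 (0.988), Pigo, of the synthesis of glycosylphosphatidylinositol anchors (0.987), and Rabggta, a subunit of the enzyme that prenylates Rab proteins (0.987). Hs6st2 fell by 1.33 in cortex (SE 0.06). The opposite pattern was closest in Parp3 (r = -0.977), Dcdc2a (-0.953) and Trip10 (-0.951), and Parp3 rose by 1.10 (SE 0.08). Within the cluster the same measure was 0.98 for Pcdhb4, 0.976 for Pcdhb7 and 0.972 for Pcdhb2, compared with 0.888 (Pcdhb17) to 0.987 (Pcdhb19) among the isoforms that form the mean.

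**Figure D4:**
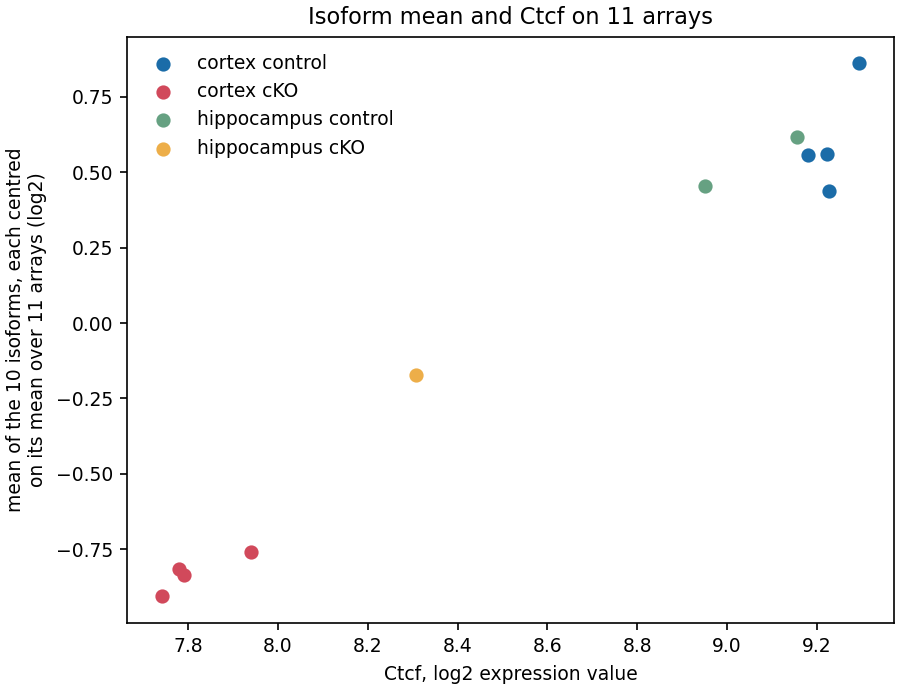
Mean of the 10 isoforms, each centred on its mean over 11 arrays (vertical axis, log2), against the log2 expression value of Ctcf (horizontal axis), 1 point per array. The cortex cKO arrays lie between -0.91 and -0.76, the hippocampus cKO array at -0.17 with Ctcf at 8.31, and the 6 control arrays between 0.44 and 0.86 with Ctcf at 8.95 or above.

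In control animals the difference between the regions ran from -0.40 to 0.73 over the 10 isoforms, with 2 hippocampus arrays. The difference, hippocampus minus cortex, was negative for 8 of the 10, against 47.6% of all probe sets, with a median of -0.19. Limma called 2 of the 10, 1 in each direction, against 12.5% of all probe sets (6.29% lower and 6.2% higher). Pcdhb20 was lower in hippocampus by 0.40 (7.91 ± 0.02, SD, n = 2, against 8.31 ± 0.16, n = 4, SE 0.11, limma adjusted p = 0.0449). Pcdhb14 was higher by 0.54 (6.68 ± 0.01 against 6.14 ± 0.23, SE 0.14, adjusted p = 0.0396). Between the same groups 12 astrocyte markers had a median difference of 0.50 with 3 called higher, and 12 meningeal and choroid plexus markers one of 0.58 with 5 called higher, 1 called lower and a highest difference of 4.50, and their part in the isoform values was not tested. The Pcdhb14 call ended in every fit that left out an array except those without cortex control 1 or hippocampus cKO 2, and the Pcdhb20 call in every one except those 2 and the fit without cortex control 2. The limma adjusted p rose as far as 0.203 for Pcdhb14 and 0.225 for Pcdhb20, both without hippocampus control 1. Pcdhb17 had the largest difference, 0.73 (6.63 ± 0.25 against 5.89 ± 0.32, SE 0.25), and was not called (adjusted p = 0.0873). Pcdhb19 was 0.40 lower (SE 0.13, adjusted p = 0.0824).

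The 3 near-identical pairs show how far these isoforms differ between an array labelled hippocampus and a cortex array with almost the same values. The array labelled hippocampus read higher than the cortex array it matches by 1.02, 0.90 and 0.93 for Pcdhb17 in the 3 pairs. Only 32 of 23332 probe sets had a higher mean difference, and the SD of the mean difference over all probe sets was 0.19. For Pcdhb14 the pairs differed by 0.26, 0.49 and 0.31, and for Pcdhb22 by -0.25, -0.19 and -0.10. The other 7 isoforms had mean differences between -0.02 and 0.24.

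The 2 isoforms that read higher in control hippocampus, Pcdhb14 and Pcdhb17, were thus those that also read highest relative to the matching cortex array. With the mean difference of the pairs subtracted from the arrays labelled hippocampus, the difference was -0.22 for Pcdhb17 and 0.19 for Pcdhb14. It became -0.59 for Pcdhb19, which was then called (limma adjusted p = 0.0387), and -0.41 for Pcdhb20, which was not. The difference for Pcdhb20 had been -0.40, and the subtraction leaves the spread within groups as it is. Calls over all probe sets, on which the adjustment depends, fell to 1124 from 2913. The error of the subtracted mean does not enter these p-values, and the subtraction leaves the cKO changes within each region as they are.

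**Figure D5:**
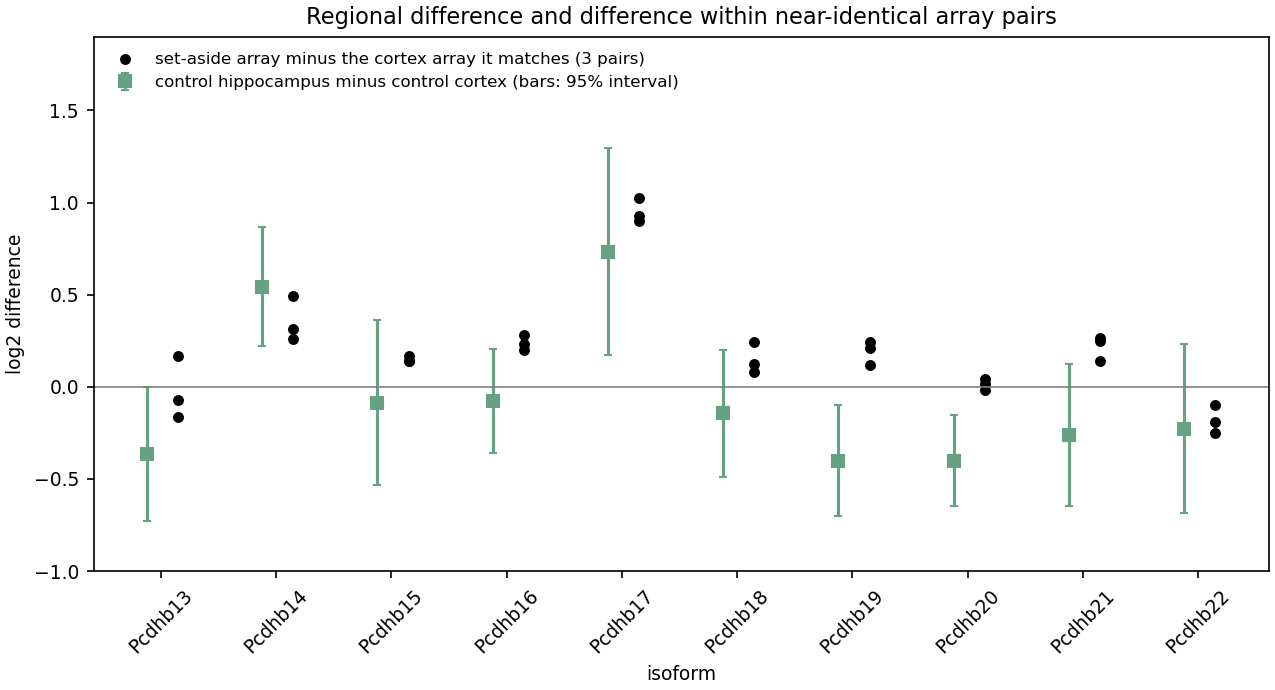
Log2 difference (vertical axis) for each isoform (horizontal axis). Green squares are control hippocampus minus control cortex with 95% intervals, and black points are the 3 arrays set aside, each minus the cortex array it matches. For Pcdhb17 the 3 points lie between 0.90 and 1.02, above the regional difference of 0.73, and for Pcdhb20 they lie between -0.02 and 0.04.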

How the data were processed

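The deposited table holds log2 expression for 23332 probe sets on each of 14 arrays. Expression Console by Affymetrix, RMA, Partek 6.4 and mm9 are named in the submitters' processing notes, and the series text states that the core probe sets were revised for the clustered protocadherins. Which probes form a set is not stated here, so signal shared between similar isoforms cannot be told apart. No filter or further normalization was applied. The number of arrays limits the precision.

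Group means were fitted over 11 arrays by limma 3.58.1 (R 4.3.3) and moderated by eBayes, and p-values were adjusted by Benjamini and Hochberg's method across the whole table, separately for each comparison. A call needed an adjusted p under 0.05 and a fold above 1.2, the thresholds the series text gives for its ANOVA. The procedure was tested on simulated data. Alternatives were all 14 arrays, cortex alone, pair means, another normalization, a filter on low values, other moderation, a Y-linked covariate, the replicate block, other fold limits and leaving out each array. SE comes from the moderated fit and SD from the arrays of a group. A list's summed level is the log2 of the sum of its linear values.

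The members and gene lists were chosen with earlier results of these data known. All members were named. From each list up to 4 called genes were named, or, where none was called, the 2 with the smallest p. Gene names came from the platform annotation (14996 probe sets with 1 symbol, 1019 with several, 7317 with none).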

Additional observations from a re-analysis of the deposited data

How the results depend on the processing

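In cortex the count of isoforms called lower was 10 of 10 as reported. Apart from the alternative given next, it was between 8 and 10 under 13 alternatives and under all 11 fits that left out an array (10 to 10), with medians from -1.51 to -1.40 when an array was left out. It was 5 with only the cortex arrays that carry Y-linked signal, an alternative chosen after the data were seen, as was the subtraction of pair differences. The fit with only those cortex arrays has fewer arrays and no hippocampus arrays. It called 56 of all probe sets, against 396 with all cortex arrays alone and 455 as reported. In hippocampus the count was 0 as reported, 6 with all 14 arrays as labelled (median -1.04) and 1 with quantile normalization again (Pcdhb20, adjusted p = 0.0336), and 0 to 0 without single arrays. No fit was possible for hippocampus without hippocampus cKO 2. The median difference between the regions' changes was 0.40 with all 14 arrays, 0.58 with array medians centred and 0.545 with quantile normalization again.

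For control hippocampus against control cortex 2 isoforms were called. The count was 0 with all 14 arrays, with the mean of each near-identical pair, with the Y-linked covariate, with the replicate block and at a fold of 1.5, 1 without moderation and with the pair difference subtracted, and 3 with quantile normalization again and with array medians centred. It ranged from 0 to 2 without single arrays, with medians from -0.30 to -0.06. The sign turned for Pcdhb16 with all 14 arrays (0.00775), Pcdhb17 with the pair difference subtracted (-0.22), Pcdhb15 without cortex control 1 (0.0176, range -0.17 to 0.0176 without single arrays) and Pcdhb18 without hippocampus control 1 (0.0102). The cause was not tested where fewer arrays or the subtraction do not show it.

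Same-numbered cortex control and cKO arrays showed no sign of pairing, with deviations that correlated between -0.0647 and 0.0518. The mean Y-linked level was 4.10 on hippocampus control 1 and 8.34 on cortex control 1. It was 3.79 on hippocampus cKO 2 and 8.33 on cortex cKO 2. As labelled, neither of these pairs comes from the same animal. Pairing of the remaining same-numbered arrays was not tested. With the replicate block 8 isoforms stayed called in cortex, Pcdhb15 (adjusted p = 0.0690) and Pcdhb17 (0.0865) not, and the median stayed at -1.45. Over all probe sets 455 were called in cortex, 282 with the Y-linked covariate, 118 with the replicate block, 287 at a fold of 1.5, 597 with quantile normalization again, 583 with array medians centred, 575 with trend and robust moderation, 56 with the cortex arrays that carry Y-linked signal and 273 to 455 without single arrays. In hippocampus 1 was called, and 0 to 78 under the alternatives. Between regions in controls 2913 were called, 3550 with array medians centred, 635 with all 14 arrays, 402 with the replicate block and 597 to 2913 without single arrays.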

Other observations

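A second probe set annotated as Pcdhb11 did not follow the cluster. It read 4.75 ± 0.15 in control and 4.81 ± 0.10 in cKO cortex (SD, n = 4 per group), a change of 0.06 (SE 0.11), while the probe set of Pcdhb11 numbered in sequence with its neighbours fell by 0.92 (SE 0.13). The second probe set has a number far from those of the other beta isoforms. The position of its probes was not analysed here.

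After group means were removed, the genes whose deviations were most like the mean deviation of the isoforms over the 11 arrays were Asah1 (r = 0.991), Xiap (0.986) and Sfxn4 (0.984). None of these was called between cKO and control cortex (changes of 0.27, -0.06 and 0.08, limma adjusted p = 0.513, 0.869 and 0.936). With 7 residual degrees of freedom and 14996 probe sets to choose from, these values are given as a description.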
